A study of Mus musculus with 18 samples.

Results

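The NRF2 oxidative stress response is described here through 10 genes, chosen by gene name as the pathway's regulators and known targets, with no value as a criterion but with earlier results of these data known: Nfe2l2, Keap1, Gclc, Gclm, Gsr, Slc7a11, Txnrd1, Srxn1, Nqo1 and Hmox1. They are 10 of the 35441 genes quantified, and all 10 were among the 14533 genes abundant enough to be tested. NRF2, the product of Nfe2l2, is a transcription factor that the adaptor protein KEAP1 normally marks for degradation. Oxidants and electrophiles modify KEAP1, so that NRF2 escapes, enters the nucleus and, with small MAF partners, binds antioxidant response elements near genes for glutathione synthesis, the thioredoxin system and quinone and heme breakdown. In liver this program protects hepatocytes from reactive metabolites, and because much of its control acts on protein stability, transcript levels of Nfe2l2 and Keap1 do not measure its activity.

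RNA was sequenced from 18 livers of male mice, in 3 groups at 2 times after injection with 3 mice in each. Lipa-/- mice, a model of lysosomal acid lipase deficiency, carried a deletion of exon 4 made by crossing a tm1a allele to CMV-Cre and were backcrossed to C57/BL6N. They were either untreated (KO) or injected once in the tail vein at 10 to 12 weeks of age with rAAV8 carrying human LIPA cDNA with an HA tag under the hAAT promoter, which is active in hepatocytes, at the middle of the doses tested (KOT), and wild-type littermates (WT) served as controls. Livers were taken 12 or 34 weeks after injection, which the labels round to 3 and 8 months. The 34-week mice carry study code 22-106 and the 12-week mice 22-132, except 1 KO mouse (23-004), so time and study code cannot be told apart. According to the methods only 1 untreated Lipa-/- mouse was still alive at 34 weeks. The other KO mice of that group had thus been killed earlier, on reaching an endpoint, and 34 weeks is for them the name of the group.

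Lipa, the gene deleted, was read at 202 to 323 CPM (counts scaled to a common library size) in the 6 WT livers, 16.7 to 33.3 CPM in the 6 KO livers and 29.1 to 37.0 CPM in the 6 KOT livers. The counts are per gene and not per exon, so they do not measure exon 4 itself, and the source of the reads left in KO and KOT livers was not tested. Human LIPA reads were at 0 in every KO liver and at 523 to 2745 CPM in the KOT livers; among WT livers, mouse 2 at 34 weeks held 23 such reads and mouse 1 held 1. Depth was 17527824 to 25833059 reads per liver. CPM values here were scaled by edgeR's TMM factors, which assume that most genes are unchanged and ranged from 0.587 to 1.69. The factors differed by group, being lowest in KOT livers at 12 weeks (0.587 to 0.759) and highest in KO livers at 34 weeks (1.37 to 1.69). Scaling by total counts instead moved the median log2 change of all genes by 0.47 and 0.63 in KO against WT, by -0.39 and 0.08 in KOT against WT and by -0.87 and -0.54 in KOT against KO, at 12 and 34 weeks respectively. A gene is said to have risen or fallen where edgeR's quasi-likelihood test with Benjamini-Hochberg adjustment over all 14533 genes gave an adjusted p under 0.05, and a direction that another scaling turned is named with it.

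Candidate response elements were looked for in the 300 bases around each member's start site in GRCm39, because this is the sequence through which NRF2 is known to act. The core TGACNNNGC, searched on both strands, was present in 3 of the 10 member windows, against 12.4% of the windows of 21603 genes. All 3 matches were on the strand opposite to the one printed, so the capitals spell the core's reverse complement. Each match is printed with 10 bases on either side, and the coordinates are of the whole printed stretch. The Gclm stretch is chr3:122039062-122039090 on the plus strand, upstream of the gene, and its capitals lay 54 to 46 bases before the start site. The Txnrd1 stretch is chr10:82694938-82694966 on the plus strand, within an intron of a longer Txnrd1 transcript, and its capitals lay 65 to 57 bases before the start of the canonical transcript. The Srxn1 stretch is chr2:151947462-151947490 on the plus strand, in the 5′ UTR of the first exon, and its capitals lay 28 to 36 bases after the start site.
Gclm: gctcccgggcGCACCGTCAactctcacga
Txnrd1: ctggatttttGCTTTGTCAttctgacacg
Srxn1: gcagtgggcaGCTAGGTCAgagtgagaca
These are matches of letters and not measured binding sites, and elements farther from a start site fall outside these windows.

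The members spanned a wide range of levels, compared between genes in TPM, the transcript share after correction for length. In WT livers at 12 weeks Gclm was the highest at 109 ± 12.6 TPM (SD, n = 3) and Gclc next at 82.4 ± 15.1 TPM, and the ranges of these neighbours overlapped. Txnrd1 followed at 41.5 ± 3.86 TPM, apart from both. Nfe2l2 (24.0 ± 2.31 TPM), Gsr (22.9 ± 5.81 TPM), Srxn1 (17.9 ± 3.02 TPM) and Keap1 (15.4 ± 3.36 TPM) formed a run in which each overlapped the next. Hmox1 (6.32 ± 0.941 TPM), Nqo1 (3.62 ± 0.338 TPM) and Slc7a11 (0.0755 ± 0.0299 TPM) each lay below its neighbour without overlap. In KO livers the order differed in several places. Hmox1, in place 8 in WT at both times, stood in place 2 at 90.9 ± 17.1 TPM at 12 weeks and 125 ± 46.5 TPM at 34 weeks. Gclc, in place 2 in WT at both times, stood in place 3 at 12 weeks and place 6 at 34 weeks. At both times it lay in a run in which neighbours overlapped. Hmox1 was back in place 8 in KOT livers at 34 weeks, at 14.5 ± 4.33 TPM. Slc7a11 was the lowest member in all 6 groups, reaching at most a mean of 1.76 ± 0.744 TPM, in KO livers at 34 weeks.

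**Figure D1:**
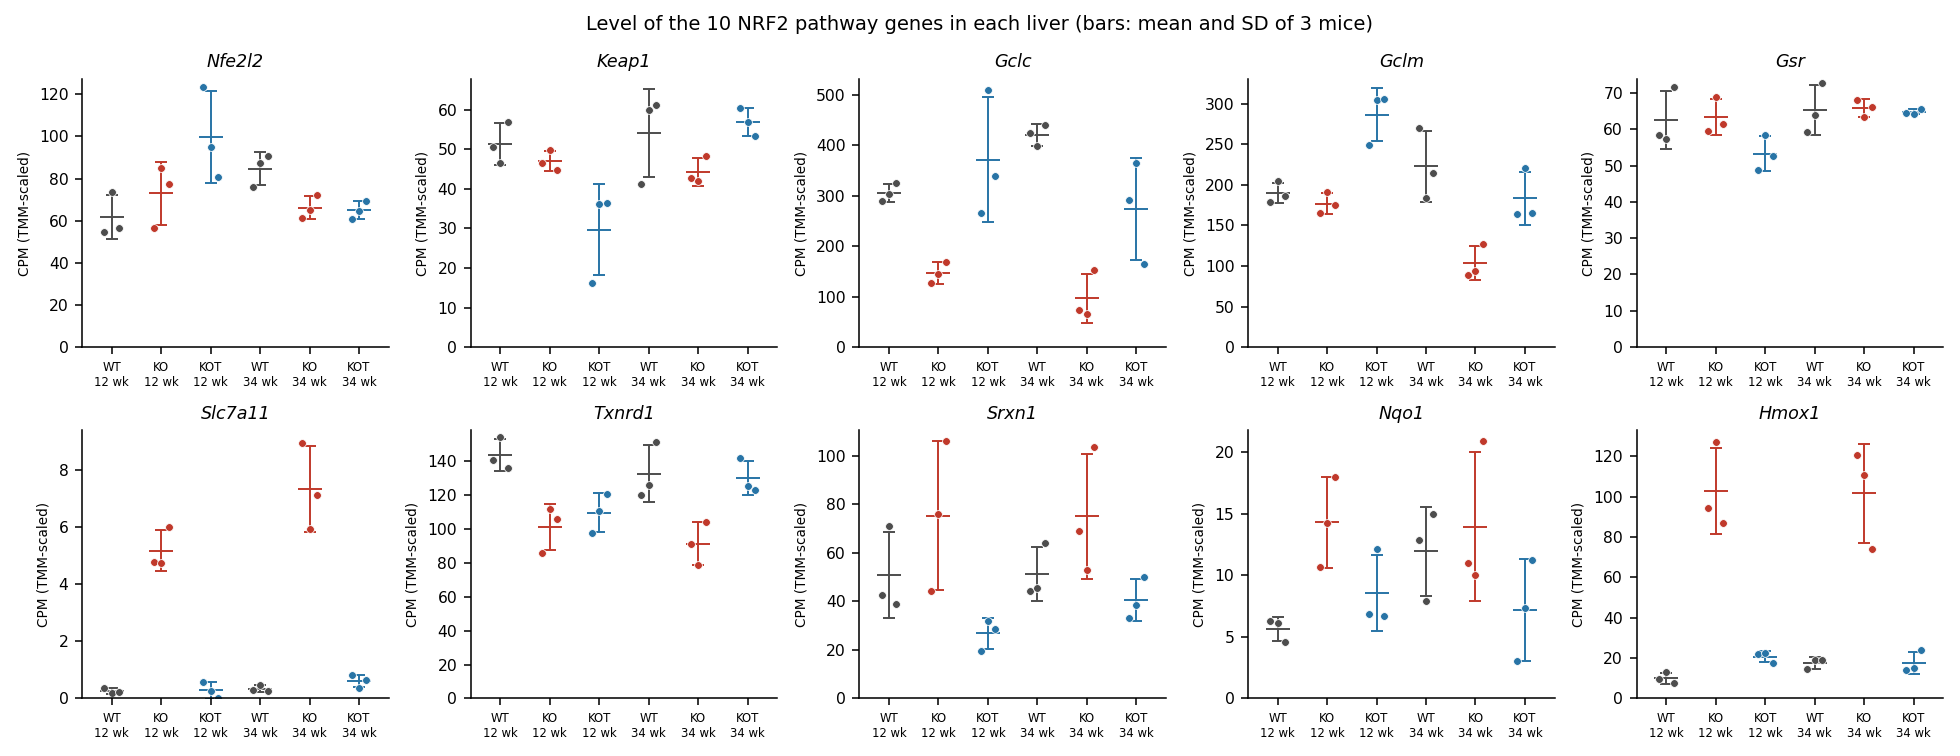
TMM-scaled CPM of the 10 members in each liver, a panel per gene and a column per group; points are livers, and bars show the mean and SD of 3. Hmox1 and Slc7a11 stand apart in the KO livers at both times, while Gsr stays between 48.9 and 72.7 CPM in every liver.

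KO was first compared with WT, which asks how the response stood in untreated deficiency. With TMM scaling the members did not move as a unit. At 12 weeks Slc7a11, Hmox1 and Nqo1 rose and Gclc and Txnrd1 fell, which is 5 of 10 members where 39.2% of all genes tested passed, 22.9% higher and 16.3% lower. At 34 weeks Slc7a11 and Hmox1 rose and Gclc, Gclm and Txnrd1 fell, again 5 of 10, against 47.3% of all genes, 23.8% higher and 23.5% lower. The members' share was thus near that of all genes at both times. Past 2-fold there were 4 members at each time, beside 29.3% and 36.3% of all genes, and the groups did not overlap for 5 and 6 members, beside 52.7% and 60.3% of all genes. Their median log2 change was 0.13 at 12 weeks and -0.14 at 34 weeks, beside 0.02 and -0.03 over all genes. With scaling by total counts 5 members passed higher and 0 lower at 12 weeks, and 4 higher and 2 lower at 34 weeks. On the TPM scale 5 passed higher and 0 lower at 12 weeks, and 4 higher and 1 lower at 34 weeks. The members that fell at 12 weeks thus did not pass lower under either of these scalings.

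Hmox1 encodes heme oxygenase-1, the inducible enzyme that breaks down heme, and responds to NRF2 and, through loss of the repressor BACH1, to heme. At 12 weeks it was read at 9.64, 12.9 and 7.54 CPM in WT, 94.4, 127 and 87.3 CPM in KO and 22.1, 22.4 and 17.6 CPM in KOT. At 34 weeks it was read at 14.4, 19.2 and 19.2 CPM in WT, 121, 111 and 74.1 CPM in KO and 14, 15 and 24 CPM in KOT. Every KO liver was far above every WT liver at both times, and the KOT livers lay between the groups at 12 weeks and overlapped WT at 34 weeks, with 1 liver below and 1 above the WT range. Against WT, Hmox1 rose in KO 10.2-fold at 12 weeks (log2 3.36 ± 0.29 SE, adjusted p = 2.36e-07) and 5.78-fold at 34 weeks (log2 2.53 ± 0.27, adjusted p = 1.80e-06).

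Slc7a11 encodes the cystine carrier of the xCT antiporter, which brings in cystine as a source of cysteine for glutathione. The gene is induced by NRF2 and by ATF4. In WT livers it was close to the limit of detection, with 7, 4 and 4 reads at 12 weeks and 5, 12 and 7 at 34 weeks. KO livers held 135, 122 and 149 reads at 12 weeks and 284, 154 and 194 at 34 weeks. As levels these were 0.191 to 0.375 CPM in WT and 4.74 to 6.02 CPM in KO at 12 weeks, and 0.272 to 0.473 CPM and 5.95 to 8.95 CPM at 34 weeks, so the groups were far apart although the gene stayed scarce. Slc7a11 rose 19.8-fold at 12 weeks (log2 4.30 ± 0.54, adjusted p = 9.99e-06) and 20.7-fold at 34 weeks (log2 4.37 ± 0.52, adjusted p = 4.19e-06). The size of this rise depended on how length was treated: with the deposited transcript lengths as offsets the log2 change was 2.90 and 3.14.

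The transcripts to which Slc7a11 reads were assigned also differed. The mean effective length, the abundance-weighted length of the transcripts to which reads were assigned, was 2932, 2899 and 2940.0 bases in WT and 6927, 8175 and 7957 bases in KO at 12 weeks. At 34 weeks it was 2945, 2933 and 2934 bases in WT and 6584, 6354 and 7795 bases in KO. Every KO length was above every WT length at both times. In the annotation the canonical transcript, Slc7a11-201, has 9226 bases in 12 exons, and Slc7a11-202 is a retained-intron transcript of 3162 bases. KOT livers had 3487 ± 638 and 3423 ± 423 bases, and in KOT mouse 12 at 12 weeks, with 0 Slc7a11 reads, the length was filled in during import and not measured. With so few reads in WT and KOT livers these lengths rest on 0 to 20.2 estimated reads each.

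**Figure D2:**
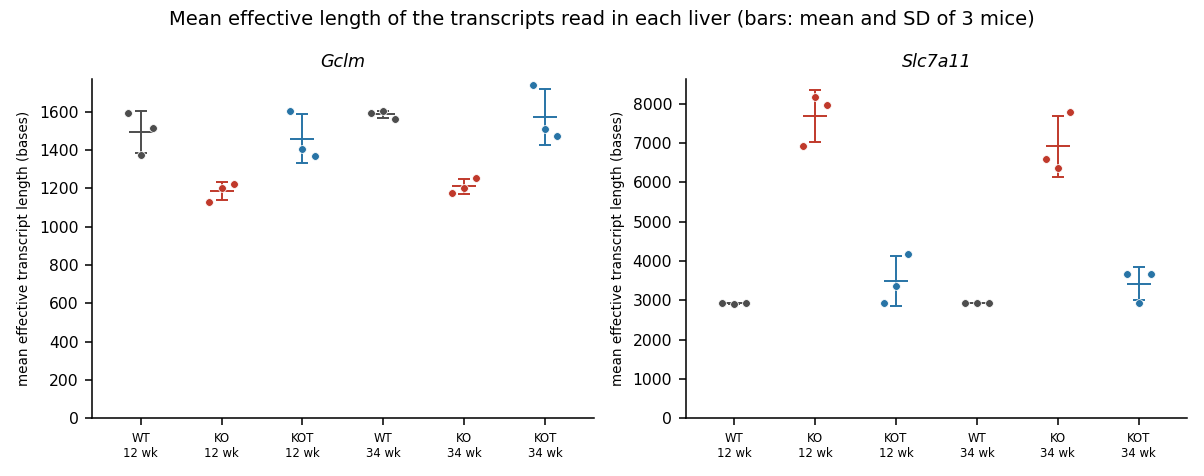
Mean effective transcript length in bases of Gclm and Slc7a11 in each liver by group; points are livers and bars show the mean and SD of 3. Slc7a11 transcripts were longer in all KO livers (6354 to 8175 bases) than in all WT livers (2899 to 2945 bases), while Gclm transcripts were shorter in KO.

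Gclc and Gclm encode the subunits of glutamate-cysteine ligase, the rate-limiting enzyme of glutathione synthesis, and Gclc fell at both times. Gclc, the catalytic subunit, was read at 289, 304 and 325 CPM in WT and 126, 146 and 169 CPM in KO at 12 weeks. At 34 weeks the values were 424, 398 and 439.7 CPM in WT and 72.8, 64.9 and 153 CPM in KO. The groups did not overlap at either time, and the third KO liver at 34 weeks held more than the other two. Gclc fell 2.08-fold at 12 weeks (log2 -1.06 ± 0.33, adjusted p = 0.0181) and 4.34-fold at 34 weeks (log2 -2.12 ± 0.34, adjusted p = 8.79e-05). The 12-week fall did not pass with total counts (log2 -0.59, adjusted p = 0.184), without KO mouse 5 (adjusted p = 0.0643) or without KO mouse 8 (adjusted p = 0.0508).

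Gclm, the modifier subunit that raises the enzyme's affinity for glutamate, held 179.5, 204 and 186 CPM in WT and 165, 191 and 175 CPM in KO at 12 weeks, with overlapping groups and no change that passed (log2 -0.10 ± 0.20, adjusted p = 0.721). At 34 weeks it held 271, 184 and 214 CPM in WT and 89.0, 93.5 and 127 CPM in KO. All 3 KO livers were then below all WT livers, a fall of 2.16-fold (log2 -1.11 ± 0.21, adjusted p = 3.12e-04). On the TPM scale the log2 difference at 34 weeks was only -0.05, and at 12 weeks it turned to 0.69 (limma on log2(TPM + 0.5), adjusted p = 0.0247). TPM divides by the effective length, which for Gclm was 1185 ± 47.6 bases in KO against 1493 ± 111 in WT at 12 weeks and 1211 ± 39.4 against 1586 ± 19.3 at 34 weeks. With those lengths as offsets in the count model the 34-week log2 change was -0.74.

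Gsr, glutathione reductase, which returns oxidized glutathione to its reduced form with NADPH, was the steadiest member in TMM-scaled CPM. It held 58.4, 57.4 and 71.7 CPM in WT and 59.5, 69.1 and 61.5 CPM in KO at 12 weeks, and 59.2 to 72.7 CPM against 63.4 to 68.1 CPM at 34 weeks. The groups overlapped at both times (log2 0.02 ± 0.15 and 0.01 ± 0.15). With total counts the 34-week difference was 0.64 and passed (adjusted p = 0.0196), about the shift of the median of all genes under that scaling. In TPM the group means of Gsr ran from 12.0 ± 3.31 in KOT at 12 weeks to 44.0 ± 9.29 in KO at 34 weeks.

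Txnrd1, cytosolic thioredoxin reductase, held 140.4, 154 and 136 CPM in WT and 85.8, 112 and 106 CPM in KO at 12 weeks. At 34 weeks it held 120.0, 126 and 152 CPM in WT and 91.2, 79.0 and 104 CPM in KO. KO livers were below WT livers without overlap at both times, with log2 changes of -0.51 ± 0.17 (adjusted p = 0.0284) and -0.54 ± 0.17 (adjusted p = 0.0181), but with total counts these were -0.04 and 0.09, so the fall depended on the scaling. It also lost its call at 12 weeks without WT mouse 1 or 2 or KO mouse 5 or 9 (adjusted p = 0.0514 to 0.107), and at 34 weeks without WT mouse 3 or KO mouse 4 or 5 (adjusted p = 0.0640 to 0.0931). Srxn1, sulfiredoxin, which restores overoxidized peroxiredoxins, ranged from 38.9 to 71.1 CPM in WT and 44.4 to 106 CPM in KO at 12 weeks, and from 44.2 to 64.0 CPM and 52.9 to 103 CPM at 34 weeks. Its groups overlapped and neither difference passed (log2 0.57 ± 0.33 and 0.55 ± 0.33), whereas with total counts both did, at 1.06 and 1.16.

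Nqo1, the quinone reductase often used as a readout of NRF2, was scarce in WT livers, at 6.27, 6.12 and 4.55 CPM at 12 weeks, and stood at 10.7, 14.2 and 18 CPM in KO. It rose 2.53-fold (log2 1.34 ± 0.42, adjusted p = 0.0177), although the call was lost without WT mouse 3 (log2 1.21, adjusted p = 0.0673) or without KO mouse 9 (log2 1.14, adjusted p = 0.0657). At 34 weeks WT livers held 12.9, 7.92 and 15 CPM and KO livers 11.0, 10.0 and 20.9 CPM. These overlapped (log2 0.22 ± 0.41, adjusted p = 0.681), with KO levels much as at 12 weeks and WT levels higher.

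Neither regulator passed in KO against WT. Nfe2l2 held 54.6, 73.7 and 56.6 CPM in WT and 56.5, 85.1 and 77.3 CPM in KO at 12 weeks (log2 0.24 ± 0.20, adjusted p = 0.362). At 34 weeks it held 75.8, 87.6 and 90.9 CPM in WT and 61.4, 64.9 and 72.2 CPM in KO, lower without overlap but not past the test (log2 -0.36 ± 0.20, adjusted p = 0.154), and with total counts the difference turned to 0.26. With total counts the 12-week difference was 0.72 and passed (adjusted p = 0.0115). Keap1 overlapped between the groups, with means of 51.3 ± 5.29 and 47.1 ± 2.49 CPM at 12 weeks and 54.2 ± 11.2 and 44.4 ± 3.51 CPM at 34 weeks.

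**Figure D3:**
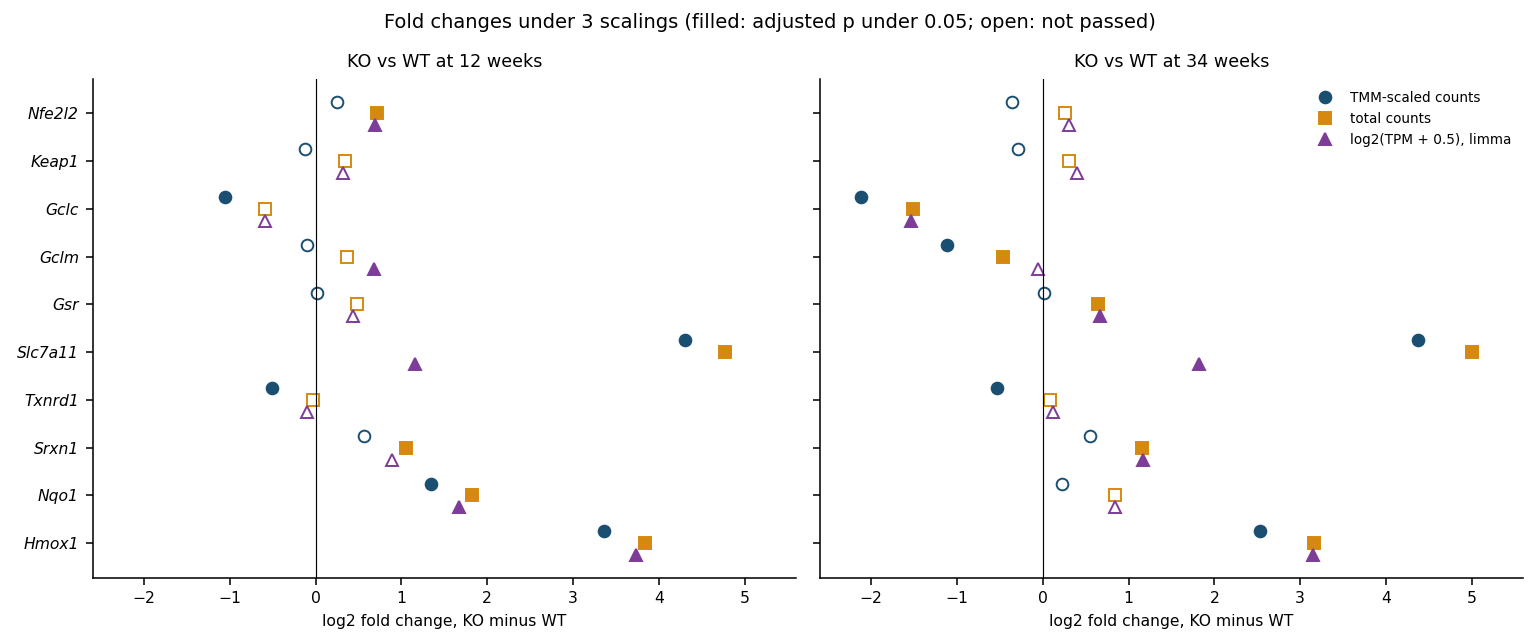
Log2 change of each member in KO against WT at 12 and 34 weeks under TMM scaling, total counts and limma on log2(TPM + 0.5); filled points passed an adjusted p under 0.05. Hmox1 lies far above 0 under each of these scalings, while Txnrd1 at 34 weeks lies below 0 with TMM and above 0 with the others. Slc7a11 lies above 0 under each, but least far in TPM. There 0.5 was added to values whose 12-week means were 0.0755 TPM in WT and 0.794 TPM in KO.

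These comparisons are of whole liver, in which fewer cells of a type and less RNA per cell cannot be told apart. The marker counts below stand beside 22.9% of all genes higher and 16.3% lower at 12 weeks, and 23.8% and 23.5% at 34 weeks. A list of 10 macrophage markers rose in full in KO at both times, its summed level being 149 to 345 CPM in WT and 4306 to 7468 CPM in KO at 12 weeks, and 256 to 474 CPM and 3301 to 6464 CPM at 34 weeks, with none of the markers at 0. Neutrophil markers also rose, 6 of 6 at 12 weeks and 5 of 6 at 34 weeks, and cholangiocyte markers, 4 of 6 and 6 of 6. Of 6 stellate cell markers 4 rose at each time while 1 and 2 fell, with summed levels of 94.1 to 181 CPM in WT and 433 to 563 CPM in KO at 12 weeks and 171 to 196 CPM and 709.7 to 1239 CPM at 34 weeks. Of 6 Kupffer cell markers 2 rose and 2 fell at 12 weeks and 0 rose and 3 fell at 34 weeks, and of 6 endothelial markers 1 rose and 2 fell at each time. Of 6 erythroid markers 1 fell at each time. Of 6 hepatocyte markers, 2 fell at 12 weeks, and at 34 weeks 4 fell and 1 rose, with summed levels of 62068 to 79039 CPM in WT and 28175 to 57078 CPM in KO. The part of these cell types in the rise of Hmox1 and Slc7a11 and in the fall of Gclc and Gclm was not tested. Over the 18 livers the genes whose log2 CPM ran most like Hmox1 were Itgb2, Irak3 and Anxa3, each with a Pearson r of 0.98, of which Itgb2 encodes the leukocyte integrin β2 chain. For Nqo1 they were Unc119 (r = 0.87), Galk2 (r = 0.87) and Wfdc2 (r = 0.85). The points of these correlations share the group differences and are given as a description.

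KOT was compared with WT, the same WT livers as above, to ask what remained after treatment. At 12 weeks Nfe2l2, Gclm and Hmox1 rose and Keap1 and Srxn1 fell, 5 of 10 members beside 36.8% of all genes, 19.4% higher and 17.5% lower. Of these 1, Hmox1, was past 2-fold, beside 25.5% of all genes, and 7 members did not overlap, beside 52.5%. At 34 weeks 0 members passed by edgeR's quasi-likelihood test, beside 0.220% of all genes. At that time 0 members had an unadjusted p under 0.05 and 0 passed with DESeq2. The median log2 change of the members was 0.17 at 12 weeks and -0.15 at 34 weeks, beside 0.06 and 0.00 over all genes. With total counts 0 members passed higher and 4 lower at 12 weeks, and on the TPM scale also 0 higher and 4 lower.

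Nfe2l2 was at 124, 94.9 and 80.8 CPM in KOT livers at 12 weeks, all above the WT livers (log2 0.70 ± 0.20, adjusted p = 0.0156). The difference was 0.29 with total counts and 0.02 on the TPM scale, neither past the test, and 0.44 without KOT mouse 10 (adjusted p = 0.118), and the call was also lost without WT mouse 1 or 3 (adjusted p = 0.0618 and 0.0699). Keap1 was at 16.3, 36.2 and 36.6 CPM, all below the WT livers and lowest in KOT mouse 10 (log2 -0.79 ± 0.25, adjusted p = 0.0217; 0.0835 without WT mouse 3). Gclm stood at 249.6, 305 and 306 CPM, above every WT liver (log2 0.59 ± 0.20, adjusted p = 0.0327), but on the TPM scale the log2 difference was -0.05. Without any of WT mice 1 and 3 and KOT mice 10, 11 and 12 its call was lost (adjusted p = 0.0612 to 0.119).

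Srxn1, at 19.7, 32.1 and 28.5 CPM in KOT at 12 weeks, lay below all WT livers (log2 -0.92 ± 0.34, adjusted p = 0.0411), a call lost without any 1 of the WT mice or of KOT mice 10 and 12 (adjusted p up to 0.183). Hmox1 was still 2.06-fold above WT (log2 1.04 ± 0.27, adjusted p = 0.00962), a call lost without WT mouse 3 (log2 0.88, adjusted p = 0.0559) and with total counts (log2 0.66). Macrophage markers were also still above WT in these livers, 6 of 10 having risen beside 19.4% of all genes. Their summed level was 884 to 2568 CPM, and their part in the Hmox1 value was not tested. The count of 5 members itself depended on single livers: it was 2 without WT mouse 1, 0 without WT mouse 3 and 2 without KOT mouse 10.

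The other members did not pass at 12 weeks with TMM scaling. Txnrd1, at 97.3, 111 and 121 CPM, was below every WT liver (log2 -0.39 ± 0.17, adjusted p = 0.0858). Nqo1, at 6.90, 12.2 and 6.67 CPM, was above every WT liver (log2 0.61 ± 0.42, adjusted p = 0.259). Gclc spread widely, at 266, 509 and 340.0 CPM, and overlapped WT.

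At 34 weeks the members' median absolute log2 difference between KOT and WT was 0.31, beside 0.23 over all genes. Nqo1, at 3.01, 7.32 and 11.3 CPM, overlapped WT (log2 -0.73 ± 0.41, adjusted p = 0.927). Hmox1 differed by a log2 of 0.00 ± 0.26. Gclc, at 291, 365 and 165 CPM, and Nfe2l2, at 60.8, 64.5 and 69.3 CPM, lay below all 3 WT livers without passing (log2 -0.62 ± 0.33 and -0.39 ± 0.20). These were the 2 members whose groups did not overlap, where 8.89% of all genes did not. Slc7a11 stood at 0.813, 0.382 and 0.661 CPM, overlapping WT (log2 0.83 ± 0.53).

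KOT was then compared with KO, the same livers set against each other, to ask what differed between treated and untreated deficiency. At 12 weeks Gclc and Gclm were higher in KOT and Keap1, Slc7a11, Srxn1 and Hmox1 lower, 6 of 10 beside 54.3% of all genes. Past 2-fold there were 4, beside 41.5%, and 7 did not overlap, beside 59.3%. At 34 weeks Gclc, Gclm and Txnrd1 were higher and Slc7a11, Srxn1 and Hmox1 lower, 6 of 10 beside 41.1% of all genes. Past 2-fold there were 3, beside 31.5%, and 7 did not overlap, beside 55.9%. The median log2 difference of the members was -0.45 and -0.03, beside -0.19 and 0.03 over all genes. With total counts 0 members passed higher and 7 lower at 12 weeks, and 1 higher and 6 lower at 34 weeks. On the TPM scale 0 passed higher and 9 lower at 12 weeks, and 1 higher and 4 lower at 34 weeks.

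Hmox1 was 4.97-fold lower in KOT at 12 weeks (log2 -2.31 ± 0.27, adjusted p = 8.73e-06) and 5.77-fold lower at 34 weeks (log2 -2.53 ± 0.27, adjusted p = 2.98e-06), with no overlap. Slc7a11, with 6, 5 and 0 reads in KOT livers at 12 weeks, was lower by a log2 of -4.24 ± 0.56 (18.9-fold, adjusted p = 2.11e-05). With 20.2, 7.25 and 17 estimated reads at 34 weeks it was lower by -3.54 ± 0.48 (11.6-fold, adjusted p = 2.57e-05). Of the macrophage markers 8 of 10 were lower in KOT at 12 weeks and 10 of 10 at 34 weeks. Over all genes 54.3% and 41.1% passed in either direction. The part of the macrophage markers in these differences was not tested.

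Gclc was higher in KOT by a log2 of 1.34 ± 0.33 at 12 weeks (adjusted p = 0.00329) and was 2.83-fold higher at 34 weeks (adjusted p = 0.00183). With total counts the log2 difference was 0.51 at 12 weeks, no longer past the test (adjusted p = 0.199), and 0.97 at 34 weeks (adjusted p = 0.0300). Gclm was higher by 0.70 ± 0.20 (adjusted p = 0.00909) and 0.83 ± 0.21 (adjusted p = 0.00375), but on the TPM scale these were -0.73 and -0.08, so its direction rested on the scaling. Srxn1, at 19.7 to 32.1 CPM against 44.4 to 106 CPM, was 2.81-fold lower at 12 weeks (log2 -1.49 ± 0.34, adjusted p = 0.00173). At 34 weeks it held 33.0, 38.4 and 50.2 CPM in KOT and 68.9, 52.9 and 103 CPM in KO, 1.85-fold lower (log2 -0.89 ± 0.33, adjusted p = 0.0422), a call lost without KO mouse 4 or 6 or KOT mouse 9 or 11 (adjusted p = 0.0587 to 0.202). Txnrd1 was higher at 34 weeks by 0.51 ± 0.17 (adjusted p = 0.0270), a difference of -0.03 with total counts, and its call was lost without KO mouse 4 or 5 or KOT mouse 9 or 11 (adjusted p = 0.0517 to 0.126). Keap1 was lower at 12 weeks by -0.66 ± 0.24 (adjusted p = 0.0312), a call lost without KO mouse 5, KO mouse 8 or KOT mouse 10 (adjusted p = 0.0564 to 0.0768). Nqo1 was lower in KOT at both times by -0.73 and -0.95 ± 0.41, neither past the test (adjusted p = 0.146 and 0.0756).

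**Figure D4:**
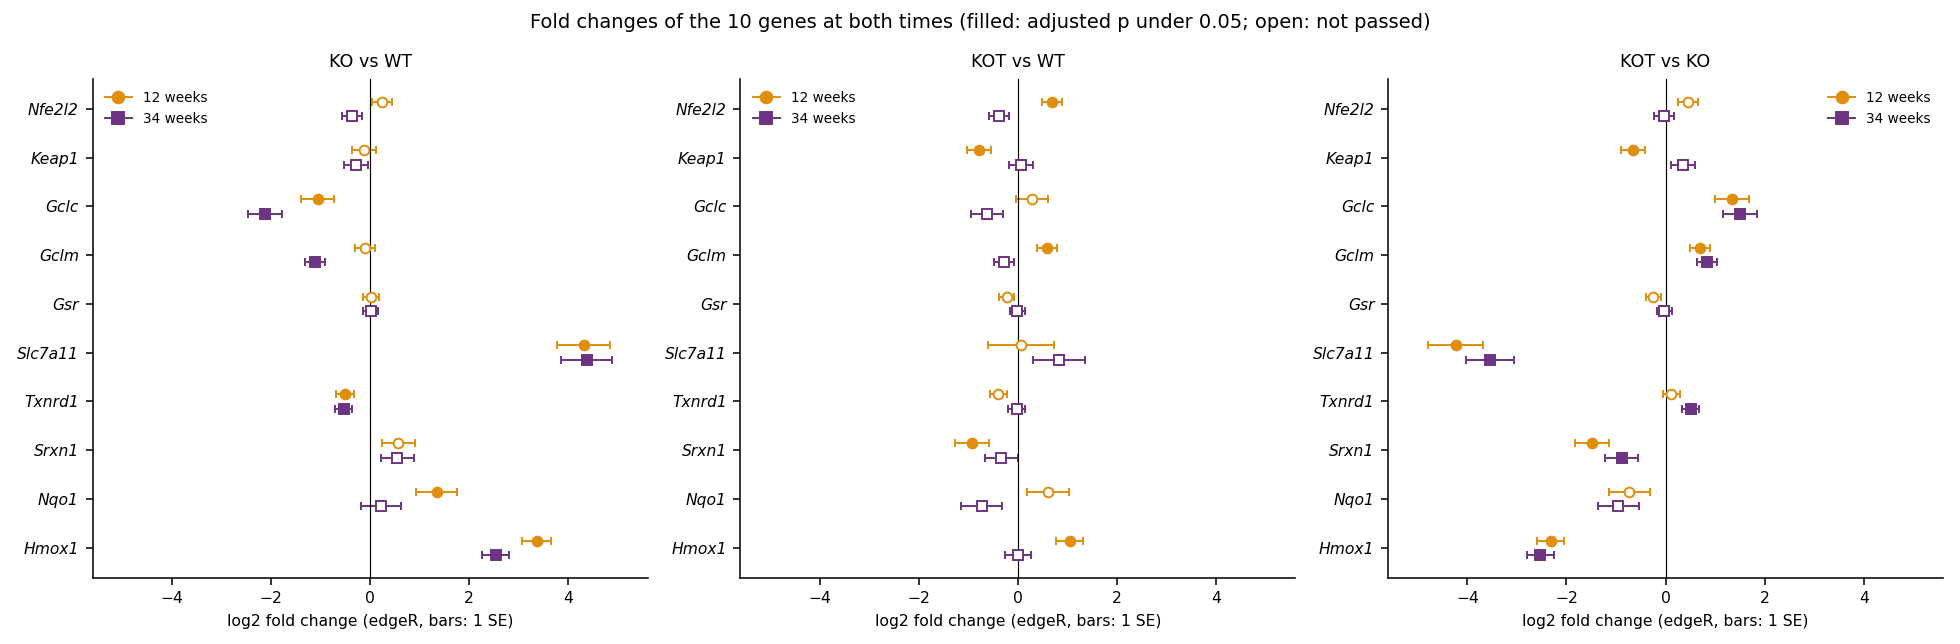
Log2 change of the 10 members in KO against WT, KOT against WT and KOT against KO; circles are 12 weeks, squares 34 weeks, bars 1 SE, and filled points passed an adjusted p under 0.05. No point is filled for KOT against WT at 34 weeks, and Hmox1 and Slc7a11 hold the largest changes of the members in both comparisons with KO.

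Between 12 and 34 weeks, in which time and study code move together, 0 members passed in WT (edgeR; 3 at an unadjusted p under 0.05 and 0 with DESeq2), beside 0.330% of all genes (0.323% past 2-fold). Nqo1, Hmox1, Nfe2l2 and Gclc were nevertheless higher at 34 weeks in WT without overlap, where 13.0% of all genes did not overlap, with log2 differences of 1.08 ± 0.42, 0.81 ± 0.27, 0.46 and 0.46. The KO mice of the 34-week group, except at most 1, had been killed earlier at an endpoint, which cannot be told apart from time either. In KO 0 members passed by edgeR's test, beside 0.523% of all genes (0.495% past 2-fold), with 1 at an unadjusted p under 0.05 and 1 with DESeq2. That member was Gclm, lower at 34 weeks by a log2 of -0.78 ± 0.20 (edgeR adjusted p = 0.0771), and it was the 1 member whose groups did not overlap, beside 27.4% of all genes. In KOT 3 members passed, beside 45.2% of all genes, and 0 were past 2-fold, beside 32.0%. The groups did not overlap for 6 members, beside 53.8%. Keap1 rose by 0.93 ± 0.25 (adjusted p = 0.00648) and Nfe2l2 and Gclm fell by -0.62 ± 0.20 (adjusted p = 0.0197) and -0.64 ± 0.20 (adjusted p = 0.0178), but on the TPM scale the last pair turned to 0.44 and 0.27. Without KOT mouse 9 of 34 weeks 1 member, Keap1, passed, and with total counts 5 passed higher and 0 lower.

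Whether the difference from WT itself changed with time was tested as an interaction. For KO 0 members passed, beside 0.0619% of all genes, with 4 at an unadjusted p under 0.05 and 1 with DESeq2. For KOT 2 passed, beside 19.6% of all genes, and 1 was past 2-fold, beside 18.4%. The KOT difference was lower at 34 than at 12 weeks for Nfe2l2 by a log2 of -1.08 ± 0.28 (adjusted p = 0.0260) and for Gclm by -0.88 ± 0.29 (adjusted p = 0.0445). Hmox1, at -1.04 ± 0.37, did not pass (adjusted p = 0.0583). With total counts the interaction was -0.60 for Nfe2l2 and -0.38 for Gclm, neither past the test. Under that scaling 1 member passed higher and 0 lower, and on the TPM scale 2 passed higher and 0 lower. Neither scaling thus held a call in the direction of the main fit. The 2 calls of the main fit rested on single livers: 0 members passed without WT mouse 1 or 3 or KOT mouse 10 of 12 weeks, or without WT mouse 1 or KOT mouse 9 of 34 weeks.

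Within groups, after the group means were removed, the 18 livers showed Gclc and Gclm varying together (Pearson r = 0.68 of log2 CPM). Srxn1 varied together with Txnrd1 (r = 0.73) and with Nqo1 (r = 0.70). These were picked as the highest values among all pairs of members. The lowest were Gclc with Hmox1 (r = -0.58) and Keap1 with Slc7a11 (r = -0.54), so the members did not all vary together. The 18 points share their scaling factors, and no test was made.

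The rest of the pathway was followed through 7 lists of related genes in KO against WT. Beside every count below stand the shares over all genes tested with TMM scaling. These were 22.9% higher and 16.3% lower at 12 weeks, and 23.8% higher and 23.5% lower at 34 weeks. The lists were not tested against these shares, so their counts alone do not set them apart from all genes. Of 15 partners and regulators of NRF2, 1 rose and 4 fell at 12 weeks and 3 rose and 1 fell at 34 weeks, whereas with total counts 3 and 5 rose and 0 fell. The 3 that rose at 34 weeks were Maff and Mafk, which are small MAF partners, by a log2 of 2.85 ± 0.63 and 0.83, and Bach1, the repressor of Hmox1, by 0.77. Sqstm1, whose product p62 sequesters KEAP1, stood at 0.07, Mafg, another small MAF, at 0.05 and Nfe2l1, a relative of NRF2, at -0.37, none past the test.

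Of 13 further glutathione genes, 2 rose and 5 fell at 12 weeks and 1 rose and 7 fell at 34 weeks (4 and 4, then 2 and 5, with total counts), with a median log2 change of -0.79 at 34 weeks beside -0.03 over all genes. Glo1 and Hagh, which detoxify methylglyoxal with glutathione, fell by -2.47 and -2.61, and Chac2, which degrades glutathione, by -2.36. The 1 that rose was Slc3a2, given with the ATF4 targets. Of 14 thioredoxin and peroxiredoxin genes 2 fell at 12 weeks and 6 at 34 weeks while 0 rose, though with total counts 3 rose at each time and 0 and 3 fell. Mitochondrial Txnrd2 (-1.68), the methionine sulfoxide reductase Msrb1 (-1.59) and Prdx6 (-1.57) were among those that fell at 34 weeks. Txn1, thioredoxin itself, stood at 0.07 and Prdx1, a peroxiredoxin induced by NRF2, at -0.77, neither past the test (adjusted p = 0.0665 for Prdx1).

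Of 6 genes that supply NADPH, 3 rose and 2 fell at 12 weeks and 2 rose and 2 fell at 34 weeks (4 and 1, then 2 and 2, with total counts). Me1, malic enzyme, fell by a log2 of -3.71 at 12 weeks and -4.64 ± 0.44 at 34 weeks, whereas G6pdx, the entry enzyme of the pentose phosphate pathway, rose by 1.81 and 2.08. Idh1, cytosolic isocitrate dehydrogenase, fell by -0.78 and -1.47. Of 28 detoxification genes, 6 rose and 10 fell at 12 weeks and 6 rose and 11 fell at 34 weeks (8 and 4, then 6 and 10, with total counts). Gpx2, a glutathione peroxidase best known from gut epithelium, rose by 4.56 ± 1.16 at 34 weeks, Trim16 by 4.63, and Gsta3, a hepatocyte glutathione transferase, fell by -2.84.

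Of 10 heme and iron genes, 5 rose and 1 fell at 12 weeks and 2 rose and 3 fell at 34 weeks, and with total counts 7 rose at 12 weeks and 6 at 34 weeks. Fth1, the ferritin heavy chain, rose by 1.67 and 1.25, while Fech, the last enzyme of heme synthesis, fell by -1.10 and -1.46. Ftl1, the ferritin light chain, rose by 0.85 at 12 weeks and stood at 0.30 at 34 weeks, and Slc40a1, the iron exporter ferroportin, fell by -0.97 at 34 weeks. Of 8 ATF4 targets, given because ATF4 also acts on Slc7a11, 4 rose and 1 fell at 12 weeks and 2 rose and 0 fell at 34 weeks (5 and 0, then 4 and 0, with total counts). Those 2 were Asns, asparagine synthetase, by 4.49 ± 0.65, and Slc3a2, the heavy chain that partners Slc7a11 in the antiporter, by 1.64 (adjusted p = 2.39e-05). Asns was itself lower at 34 than at 12 weeks in WT livers, by a log2 of -2.85 ± 0.66 (edgeR adjusted p = 0.0834). In KO livers it was lower by -0.39.

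In KOT against WT at 34 weeks the lists held 1 gene that passed, Asns (log2 4.10, adjusted p = 0.0114), where 0.220% of all genes passed. The WT livers of this comparison are those in which Asns was lower at 34 than at 12 weeks (log2 -2.85). At 12 weeks 6 of 14 thioredoxin and peroxiredoxin genes rose and 1 fell, beside 19.4% and 17.5% of all genes, including Txn1 (log2 0.71) and Prdx1 (log2 0.96), though with total counts 2 rose and 2 fell.

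**Figure D5:**
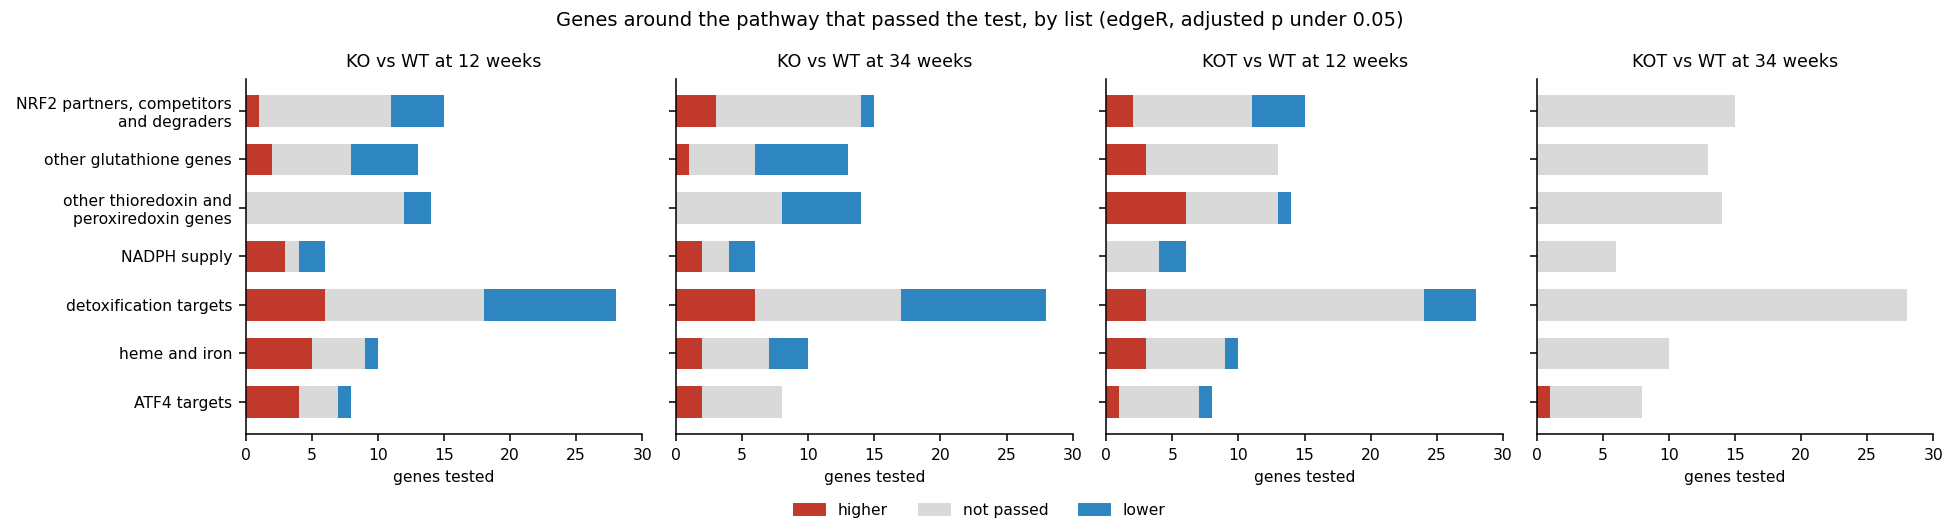
Number of genes in each of 7 pathway lists that passed higher, did not pass, or passed lower, in KO and KOT against WT at 12 and 34 weeks, with TMM scaling. In KO most lists held genes passing in each direction, except the thioredoxin and peroxiredoxin list, where 0 passed higher at either time, and the ATF4 list at 34 weeks, where 0 passed lower, and in KOT at 34 weeks only 1 gene, in the ATF4 list, passed.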

How the data were processed

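Liver RNA from 18 mice was poly(A)-selected and sequenced in 2 × 150 bp reads. The authors quantified transcripts with Salmon 1.9.0 against Ensembl cDNA release 110 (GRCm39) and deposited, per gene, estimated counts, TPM and mean effective transcript lengths (a score in bases) summarised with tximport 1.28.0. Reads outside annotated transcripts do not enter these values.

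Here the estimated counts were rounded to whole numbers, and genes were kept where the livers together held over 100 reads (14533 of 35441). edgeR 4.0.16 (R 4.3.3) fitted 6 group means with TMM factors, and quasi-likelihood tests gave 11 contrasts with Benjamini-Hochberg adjustment over all genes tested. The standard error was the log2 change divided by the square root of F. The alternatives were other size factors, DESeq2 1.42.0, length offsets, other filters, limma 3.58.1 on log2(TPM + 0.5), a stricter threshold, only the groups compared, a replicate block and leaving out each liver. The fit was tested on simulated data in which few genes changed, equally many up and down, so that test cannot probe the TMM scaling. Genes are the 10 members and, for each list, up to 3 that passed in KO against WT at 34 weeks with the largest change, plus preset NRF2 partners, thioredoxin and ferritin genes. The members and lists were chosen with earlier results of these data known. Replicate livers are separate mice and no liver was a copy of another. Promoter windows held 250 bases before and 50 after each canonical start in GRCm39 with GENCODE vM39. Depth limits Slc7a11, for which 3 reads equal 0.0946 to 0.291 CPM depending on the liver; this covers counting error only.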

Additional observations from a re-analysis of the deposited data

Results flagged for a closer look

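The change in the KOT difference from WT between 12 and 34 weeks passed the interaction test for 2 members. For Nfe2l2 it was -1.08 on the log2 scale, with the KOT livers above the WT livers at 12 weeks and below them at 34 weeks. For Gclm it was -0.88, with the KOT livers above the WT livers at 12 weeks and overlapping them at 34 weeks. With total counts 0 members passed lower and 1 higher, and on the TPM scale 0 passed lower and 2 higher. Time and study code move together in these livers, so the part of either cannot be told apart.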

How the results depend on the processing

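Over 110 results and 1945 recomputed values, 1754 kept direction and side of the threshold, 132 no longer passed, 45 newly passed and 14 turned while called; counting values not called, 165 changed sign. Those that turned were, with limma on TPM, Nfe2l2 in KOT against KO at 12 weeks (-0.68) and in KOT over time (0.44), Gclm in KO against WT (0.69) and KOT against WT at 12 weeks (-0.048), in KOT against KO at 12 (-0.73) and 34 weeks (-0.079) and in KOT over time (0.27), and Txnrd1 in KO against WT at 34 weeks (0.12) and KOT against KO at 12 weeks (-1.01). With total counts they were Nfe2l2 in KOT over time (0.031), Gclm in KOT against KO at 12 weeks (-0.17), and Txnrd1 in KO against WT at 34 weeks (0.087) and KOT against KO at 12 (-0.75) and 34 weeks (-0.031). The cause was not tested. Counts of members that moved by over 1.5 times follow, with those also past 2-fold named so. DESeq2 gave 1 for KO over time, 1 for the KO interaction and 2 past 2-fold for the KOT interaction. An adjusted p of 0.01 gave 2 and 2 past 2-fold for KO against WT at 12 weeks, 1 for KOT against WT at 12 weeks, 1 for KOT over time, and 0 and 0 for the KOT interaction. TPM gave, past 2-fold, 3 for KOT against WT and 7 for KOT against KO at 12 weeks, 4 for KOT over time and 2 for the KOT interaction, and 1 passing for KO over time. Total counts gave 2 past 2-fold for KOT against WT at 12 weeks, 5 and 3 for KOT over time and 1 for the KOT interaction. No filter gave 1 for KOT over time and 1 for the KOT interaction, only the groups compared 3 for KOT against WT at 12 weeks, 1 for KOT over time and 0 and 0 for the KOT interaction, length offsets 1 for the KOT interaction, and upper quartile 1 past 2-fold for KOT over time. Leaving out each liver gave 3 to 4 (3 to 4 past 2-fold) in KO against WT at 12 weeks and 4 to 5 (3 to 4) at 34, 0 to 4 (0 to 2) in KOT against WT at 12 weeks and 0 at 34, 5 to 7 (4) in KOT against KO at 12 weeks and 4 to 7 (3 to 5, with 5 without KOT mouse 12) at 34, 0 for WT, 0 to 1 (0) for KO and 1 to 3 (0 to 1) for KOT over time, and 0 and 0 to 3 (0 to 3) for the KO and KOT interactions. With the mouse number as a replicate block, where it could be fitted, 0 and 0 passed in KOT against KO at 12 and at 34 weeks, 0 in KOT over time and 0 and 0 in the KOT interaction; it could not be fitted for KO or KOT against WT. The numbers name different mice, and same-numbered mice deviated together by r of only -0.25 to 0.46, so they do not pair the livers.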
